A study of Mus musculus with 6 samples.

Results

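Enzymes of xenobiotic metabolism outside the cytochrome P450 family were followed in mouse tracheal epithelium 48 h after injury by SO2 gas (48 hpi) and in control epithelium. The set was listed by gene symbol and holds 42 genes: 13 glutathione transferases, 2 sulfotransferases, 8 aldehyde dehydrogenases, 3 flavin monooxygenases, 8 hydrolases (carboxylesterases, epoxide hydrolases and paraoxonases) and 8 carbonyl, alcohol and other reductases or oxidases. Of these, 41 were measured, among 18193 genes that have a probe set of their own symbol alone, and they are covered by 69 of 34945 such probe sets. Por, which encodes the reductase that passes electrons to cytochrome P450, had no probe set with its symbol alone and was not analysed here. The 48 hpi group came from adult male C57Bl/6 mice that had inhaled 500 ppm SO2 for 4 h, a gas exposure that kills the luminal cells of the trachea and leaves basal cells to repair it. The control group came from uninjured C57Bl/6 mice. Each group has 3 arrays and each array holds the pooled epithelium of 4 tracheas, so the spread between arrays is that between pools and not between single mice. In both groups the epithelium was lifted off with Dispase, dissociated with trypsin and freed of CD45+ leukocytes with magnetic beads, so an array reads the mixture of all cell types left in that sheet.

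These enzymes make inhaled and internally produced chemicals easier to excrete. Flavin monooxygenases, aldehyde and alcohol dehydrogenases, carbonyl reductases and esterases oxidise, reduce or split a molecule, and glutathione transferases and sulfotransferases then attach a polar group to it. In the airways many of them are known as products of the secretory (club) cells, which are rich in smooth endoplasmic reticulum.

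The values are log2 signals normalized by robust multi-chip analysis (RMA), and a difference of 1 is a 2-fold change in signal. Values of different genes come from different probes and are not compared as levels. A gene was called higher or lower where limma gave it a p below 0.05 after Benjamini-Hochberg adjustment across the 18193 genes. Changes are given as 48 hpi minus control with the standard error (SE), n = 3 pools per group. For a single gene, exact permutation of 3 against 3 pools reaches no two-sided p under 0.1, so single calls rest on the spread that limma shares across genes. Background was set by 79 probe sets of receptors for odours, pheromones and trace amines, genes taken to be silent here, at the 95th percentile of their group means (4.81 at 48 hpi and 4.94 in control). The array of the third 48 hpi pool stood somewhat apart, with a correlation of 0.99 and 0.992 with the other 48 hpi arrays, which correlated with each other at 0.996. The control arrays correlated at 0.992 to 0.996.

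Most of the enzymes had lower mRNA at 48 hpi. Of the 41 measured, 26 were called lower (63.4%), 3 were called higher (7.32%) and 12 were not called. Over all genes tested 36.9% were called, 17.5% lower and 19.4% higher. Among the 12272 genes above background in at least 1 group, 23.4% were lower and 27.6% higher. The median change was -0.87 over the 41 enzymes and -0.019 over all genes. The fall was at least 1 on the log2 scale for 19 of the enzymes, against 3.87% of all genes, and at least 2 for 8 of them, against 0.61% of all genes. In pooled tissue, fewer cells of a type and less RNA per cell cannot be told apart. All pools of 48 hpi lay below all control pools for 32 of the enzymes and above them for 3, while over all genes the groups were separated in this way for 25.1% below and 25.4% above. The signal passed background in at least 1 group for 39 of the 41, and the exceptions were Ces1g and Ephx2. Without the third 48 hpi array the counts were again 26 lower and 3 higher. When the arrays were instead scaled to equal signals of the spiked hybridization controls, the median change over all genes moved to 0.32, and 837 genes were called lower and 4409 higher. On that scale 20 of the enzymes were called lower and the same 3 higher, with the calls of Gstp1, Gstt3, Sult1d1, Aldh1a1, Aldh3a1 and Aldh3a2 lost.

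**Figure D1:**
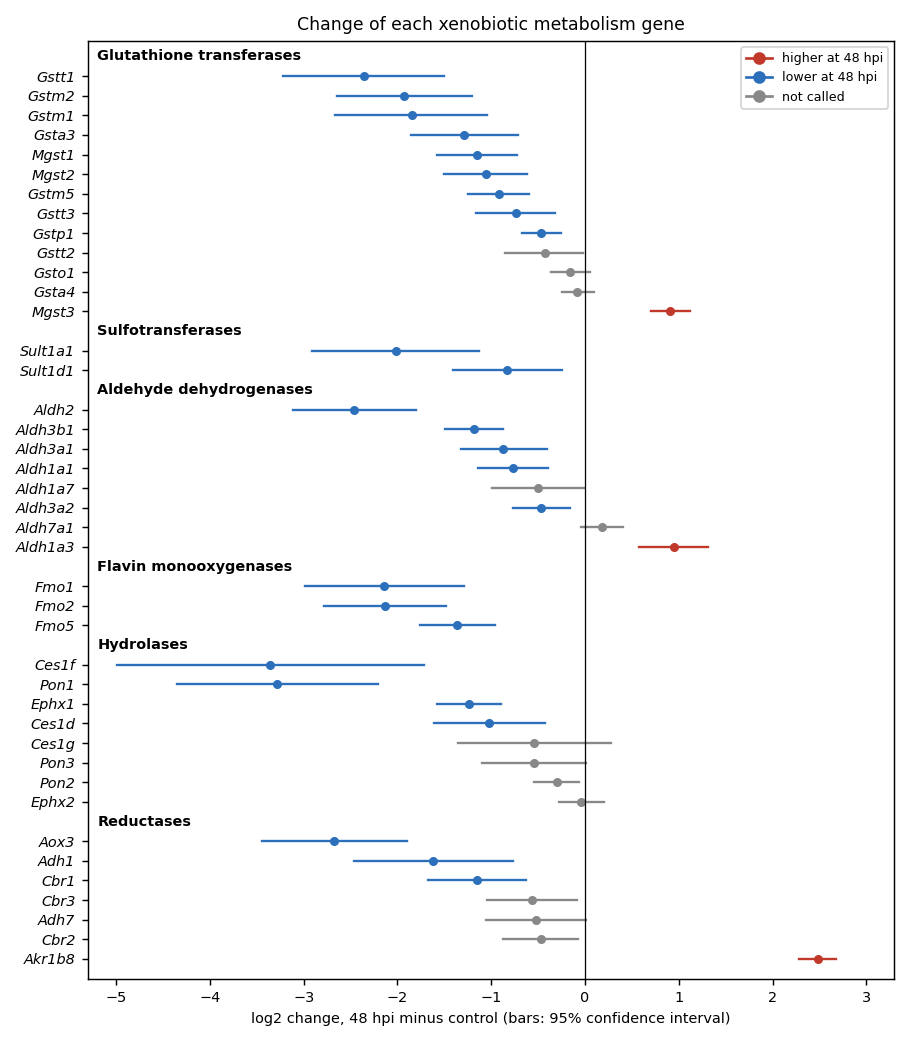
Log2 change (48 hpi minus control) of each of the 41 enzymes, by kind of enzyme, with points for the limma estimate and bars for its 95% confidence interval. Points left of the line at 0 were lower at 48 hpi: 26 were called lower, 3 higher (Mgst3, Aldh1a3 and Akr1b8) and 12 were not called.

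Promoters are shown to place short response element letters beside the members that carry them. The upstream 250 bases of 36 promoters of 31 members (RefSeq, GRCm38.p6) were searched on both strands for TGACNNNGC, the core of the antioxidant response element that the stress regulator Nrf2 binds, and for GCGTG, the core of the xenobiotic response element that the aryl hydrocarbon receptor binds. TGACNNNGC stood in 3 of the 36 promoters (8.33%) and in 10.2% of 32851 promoters of the same length. These were the promoters of Gsta3, Gstm5 and Mgst1, all called lower. GCGTG stood in 11 of the 36 (30.6%) and in 28.2% of all promoters. Of the 10 members with GCGTG, 7 were called lower, Pon2 was not called, and Akr1b8 and Mgst3 were called higher. For this motif the windows of the 2 higher members and of Aox3, the one with the largest fall, are shown. The capitals mark the match in each window, written 5′ to 3′ on the strand of the gene, and in Gstm5 the TGACNNNGC match also holds GCGTG read on the opposite strand.
Gsta3 (chr1:21240434-21240502, plus strand, match ending 113 bases before the start): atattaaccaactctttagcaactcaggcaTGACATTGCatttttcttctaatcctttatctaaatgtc
Gstm5 (chr3:107895782-107895850, plus strand, 34 bases before the start): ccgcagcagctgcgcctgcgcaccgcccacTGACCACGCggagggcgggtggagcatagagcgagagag
Mgst1 (chr6:138140441-138140509, plus strand, 48 bases before the start, match on the opposite strand): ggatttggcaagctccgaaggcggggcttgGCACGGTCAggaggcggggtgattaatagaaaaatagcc
Akr1b8 (chr6:34354090-34354145, plus strand, 22 bases before the start): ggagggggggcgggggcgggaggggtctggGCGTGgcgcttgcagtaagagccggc
Aox3 (chr1:58112981-58113045, plus strand, 121 bases before the start): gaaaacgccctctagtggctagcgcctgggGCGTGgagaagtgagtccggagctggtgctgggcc
Mgst3 (chr1:167393842-167393893, minus strand, 18 bases before the start): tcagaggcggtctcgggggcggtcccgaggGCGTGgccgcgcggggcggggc
A match here is a description of letters, and binding was not measured.

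Of the 13 glutathione transferases, which join glutathione to reactive molecules, 9 were lower at 48 hpi (69.2%), Mgst3 was higher and 3 were not called. Their median change was -0.92, and over all genes 17.5% were lower and 19.4% higher. Gstt1, a theta-class enzyme, had 6.15, 6.14 and 4.67 in the 48 hpi pools, against 8.36, 7.89 and 7.80 in control pools. It fell by 2.36 (SE 0.37, adjusted p = 0.00181), and the third 48 hpi pool lay below background. Gstm2, of the mu class, which acts on many electrophiles, had 10.38, 9.81 and 8.94 in 48 hpi pools, against 11.86, 11.49 and 11.57 in controls, a change of -1.93 (SE 0.31, adjusted p = 0.00201). Its neighbour Gstm1 had 11.36, 10.83 and 9.70 at 48 hpi, against 12.56, 12.41 and 12.48 in control, a change of -1.85 (SE 0.35, adjusted p = 0.00426). The probe set of Gstm1 is of a kind whose probes can also bind similar transcripts, so these close copies may share signal. Gsta3, an alpha-class enzyme, had 10.70, 10.12 and 9.62 at 48 hpi, against 11.52, 11.19 and 11.59 in control, a change of -1.29 (SE 0.25, adjusted p = 0.0045). In each of these 4 genes every 48 hpi pool was below every control pool, and the 48 hpi pools were spread more widely than the controls.

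The other lower transferases were the membrane-bound enzymes Mgst1 (-1.15) and Mgst2 (-1.06), the mu-class Gstm5 (-0.92), the theta-class Gstt3 (-0.74) and the pi-class Gstp1 (-0.47, SE 0.09, adjusted p = 0.00401). The call of Gstt3 was lost without the first control array. The cytosolic Gsta4, known for conjugating the lipid peroxidation product 4-hydroxynonenal, had a change of -0.08 with a 95% confidence interval of -0.25 to 0.10. Gsto1, an omega-class enzyme that also reduces dehydroascorbate, had a change of -0.16 (interval -0.36 to 0.05). These 2 genes were not called and took the opposite sign under some of the other scalings. Gstt2 was not called either (-0.43, adjusted p = 0.0998) and lay close to background. Mgst3, the third membrane-bound member, which also has glutathione peroxidase activity, ran the other way from Mgst1 and Mgst2. It had 11.05, 11.09 and 11.26 at 48 hpi, against 10.26, 10.17 and 10.25 in control, a change of 0.91 (SE 0.09, adjusted p = 0.000236), and all 48 hpi pools were above all control pools.

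**Figure D2:**
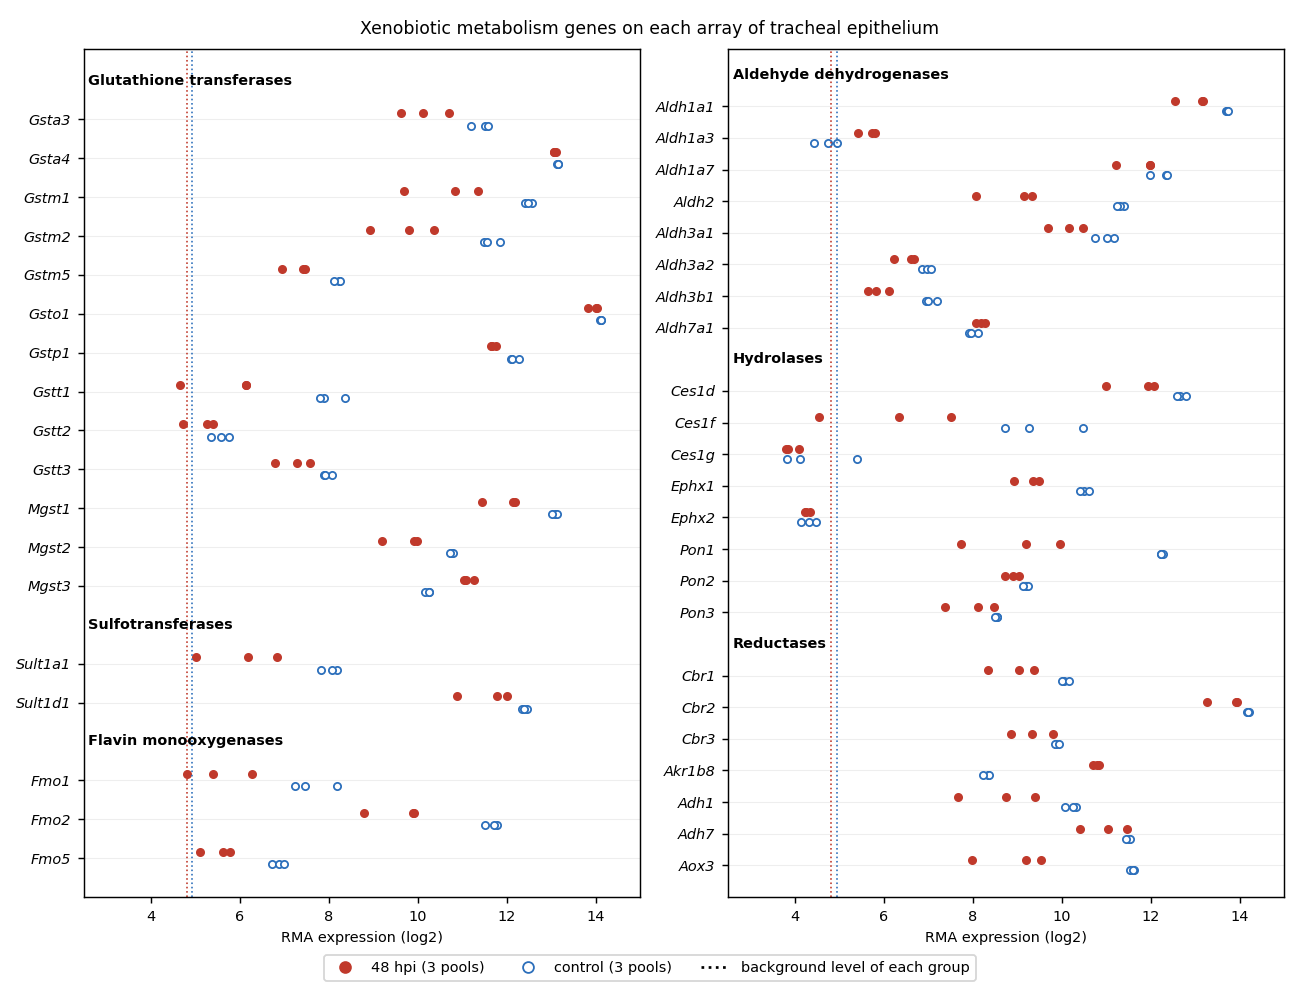
RMA log2 value of every enzyme on each array, with filled points for the 3 pools of 48 hpi and open points for the 3 control pools and a dotted line for the background of each group. In 32 genes all filled points lie left of all open points, and in Mgst3, Aldh1a3 and Akr1b8 they lie to the right.

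Both sulfotransferases of the set, which transfer sulfate to phenols and amines, were called lower, as were 17.5% of all genes. Sult1a1, the phenol sulfotransferase, had 6.83, 6.19 and 5.03 at 48 hpi, against 7.83, 8.20 and 8.07 in control, a change of -2.02 (SE 0.39, adjusted p = 0.00436). Sult1d1, which acts on catecholamines in the mouse, had 12.02, 11.78 and 10.89 at 48 hpi, against 12.45, 12.35 and 12.39 in control, a change of -0.83 (SE 0.25, adjusted p = 0.0331). The groups did not overlap in either gene, but the call of Sult1d1 was lost when any 1 control array was left out, with 1 sulfotransferase then called.

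The 3 flavin monooxygenases of the set, enzymes which oxidise nitrogen and sulfur atoms of drugs and toxins, were lower at 48 hpi. Their median change was -2.13, and 17.5% of all genes were lower. Fmo2, known as the main pulmonary form in many mammals, had 9.90, 9.93 and 8.79 at 48 hpi, against 11.51, 11.79 and 11.71 in control, a change of -2.13 (SE 0.28, adjusted p = 0.000792) or 4.38-fold lower. Fmo1 had 6.28, 5.40 and 4.82 at 48 hpi, against 8.20, 7.25 and 7.47 in control, a change of -2.14 (SE 0.37, adjusted p = 0.0027). Fmo5 had 5.63, 5.79 and 5.10 at 48 hpi, against 6.73, 6.88 and 6.99 in control, a change of -1.36 (SE 0.17, adjusted p = 0.000663). The 48 hpi and control pools were separate in all 3 genes, and Fmo1 in the third 48 hpi pool was near background. Fmo4, which was not listed in the set and is named here after its values were seen, was close to background in both groups and was not called (-0.07, adjusted p = 0.594).

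Of the 8 aldehyde dehydrogenases, 5 were lower (62.5%, against 17.5% of all genes), Aldh1a3 was higher and 2 were not called. Their median change was -0.63. Aldh2, the mitochondrial enzyme that clears acetaldehyde, had 9.33, 9.14 and 8.08 at 48 hpi, against 11.39, 11.30 and 11.24 in control. This is a change of -2.46 (SE 0.28, adjusted p = 0.000446), or 5.50-fold lower, and the groups were well apart. Aldh3b1, which oxidises lipid-derived aldehydes, had 6.12, 5.83 and 5.64 at 48 hpi, against 6.95, 7.19 and 6.99 in control, a change of -1.18 (SE 0.14, adjusted p = 0.000426). Aldh3a1, the cytosolic enzyme known from cornea and airway, had 10.48, 10.17 and 9.68 at 48 hpi, against 11.16, 10.75 and 11.01 in control, a change of -0.87 (SE 0.20, adjusted p = 0.00996). Aldh1a1, which makes retinoic acid from retinal, changed by -0.77 and the fatty aldehyde enzyme Aldh3a2 by -0.47, a call that was lost without the second or the third control array. The remaining 2, Aldh1a7 (-0.50, adjusted p = 0.103), a rodent paralog of Aldh1a1, and Aldh7a1 (0.18, adjusted p = 0.186), which acts in lysine breakdown, were not called. Aldh1a3, another maker of retinoic acid, had 5.80, 5.73 and 5.42 at 48 hpi, against 4.94, 4.75 and 4.42 in control, a change of 0.95 (SE 0.16, adjusted p = 0.00226). Its control mean lay below background, and with background as the floor of each control array it was at least 1.64-fold higher.

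Of the 8 hydrolases, 4 were lower (50%, against 17.5% of all genes), none was higher and 4 were not called. Their median change was -0.78. Among the members they held the 2 largest falls. Ces1f, a carboxylesterase known from liver, had 7.51, 6.34 and 4.54 at 48 hpi, against 10.47, 8.73 and 9.26 in control, a change of -3.36 (SE 0.71, adjusted p = 0.00691). It varied most between pools in both groups, and its probe set can share signal with related carboxylesterases. Pon1, the paraoxonase that splits organophosphates and lactones, had 9.95, 9.20 and 7.74 at 48 hpi, against 12.23, 12.28 and 12.22 in control, a change of -3.28 (SE 0.46, adjusted p = 0.00107) or 9.71-fold lower. Control pools lay within 0.06 of each other in this gene while the 48 hpi pools were far apart, and no 48 hpi pool came near a control. Ephx1, the microsomal epoxide hydrolase, had 9.49, 9.36 and 8.93 at 48 hpi, against 10.50, 10.60 and 10.40 in control, a change of -1.24 (SE 0.15, adjusted p = 0.000487). Ces1d, a carboxylesterase that also splits triglycerides, had 12.07, 11.94 and 10.98 at 48 hpi, against 12.66, 12.59 and 12.80 in control, a change of -1.02 (SE 0.26, adjusted p = 0.0145), and its call was lost without the third control array. The lactonase Pon3 (-0.54, adjusted p = 0.118) and the intracellular Pon2 (-0.30, adjusted p = 0.0526) were not called. Ces1g (-0.54) and the soluble epoxide hydrolase Ephx2 (-0.04) were below background in both group means, so these values cannot be read as changes in level.

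Of the 7 measured reductases and oxidases, 3 were lower (42.9%, against 17.5% of all genes), Akr1b8 was higher and 3 were not called. Their median change was -0.57. Aox3, an aldehyde oxidase that contains molybdenum, had 9.52, 9.20 and 7.99 at 48 hpi, against 11.53, 11.62 and 11.60 in control, a change of -2.68 (SE 0.34, adjusted p = 0.000631) or 6.40-fold lower. Adh1, the alcohol dehydrogenase that oxidises ethanol and retinol, had 9.39, 8.74 and 7.66 at 48 hpi, against 10.31, 10.07 and 10.26 in control, a change of -1.62 (SE 0.37, adjusted p = 0.00938). Cbr1, a carbonyl reductase of quinones and prostaglandins, had 9.37, 9.03 and 8.35 at 48 hpi, against 10.04, 10.01 and 10.15 in control, a change of -1.15 (SE 0.23, adjusted p = 0.0048). In these 3 genes every 48 hpi pool was below every control pool. Cbr2, the carbonyl reductase abundant in club cells, had a change of -0.47 (adjusted p = 0.069), Cbr3 of -0.57 (adjusted p = 0.0658) and the retinol-oxidising Adh7 of -0.52 (adjusted p = 0.118), and none of them was called. Akr1b8, an aldo-keto reductase of lipid aldehydes and retinal, was the enzyme that differed most in the other direction. It had 10.80, 10.84 and 10.71 at 48 hpi, against 8.33, 8.37 and 8.22 in control, a change of 2.48 (SE 0.09, adjusted p = 1.88e-06) or 5.57-fold higher. Pools of each group lay close together in this gene and its call held under all 21 alternative settings.

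The 48 hpi pools did not fall evenly. The third pool was the lowest of the 3 for 25 of the 26 enzymes called lower, and for 39 of all 41, while it was the lowest for 75.4% of all 3191 genes called lower. The first pool was the highest for 23 of the 26. Against the control mean, the median change of the 26 was -0.91 in the first pool, -1.17 in the second and -1.74 in the third. The median SD of the 26 was 0.57 among 48 hpi pools and 0.10 among control pools, while over all genes called lower it was 0.17 and 0.12. Akr1b8 was within 0.13 between 48 hpi pools. Without the first 48 hpi array, 31 enzymes were called lower, with Pon2, Pon3, Cbr2, Cbr3 and Adh7 added.

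**Figure D3:**
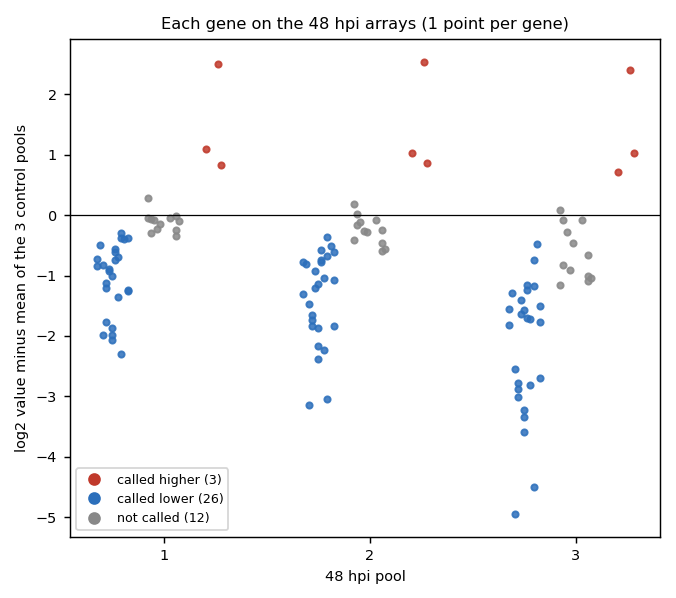
Value of each enzyme in each of the 3 pools of 48 hpi minus the mean of the 3 control pools, in log2 units, with 1 point per gene, coloured by call. Points of the enzymes called lower have medians of -0.91 in the first pool, -1.17 in the second and -1.74 in the third, and the 3 enzymes called higher stay above 0 in every pool.

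Close relatives that lie next to each other in the genome did not all move by the same amount. For 17 pairs of members of the same family, on 1 chromosome with at most 4 genes between them, the difference of the 2 genes was taken within each array, a comparison chosen after the values were seen. In 11 pairs the differences on 48 hpi arrays were separate from those on control arrays. The share of other gene pairs that separate in this way was not computed. Among single genes it was 25.1% below and 25.4% above, so the count is not read as a trait of these families. By exact permutation each of the 11 pairs has a two-sided p = 0.1, the lowest attainable here, and 0.155 after adjustment over the pairs. None passes the threshold. The largest differences were between paraoxonases and between carboxylesterases. Pon1 changed by -2.74 relative to Pon3 and by -2.98 relative to Pon2, and the difference of Pon1 and Pon3 was 1.48, 1.09 and 0.38 on 48 hpi arrays, against 3.69, 3.74 and 3.73 on control arrays. Ces1f changed by -2.82 relative to Ces1g, which was below background, and the difference of Ces1d and Ces1f changed by 2.33. In the third 48 hpi pool Ces1f was below background as well. Among the theta transferases Gstt1 changed by -1.62 relative to Gstt3. Adh1 changed by -1.09 relative to Adh7, and Cbr1 by -0.59 relative to Cbr3. Among the mu transferases Gstm1 and Gstm2 differed by 0.07 (exact permutation test, two-sided p = 0.5) and Gstm1 changed by -0.93 relative to Gstm5. Fmo1 and Fmo2 differed by -0.01 (exact permutation test, two-sided p = 1).

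**Figure D4:**
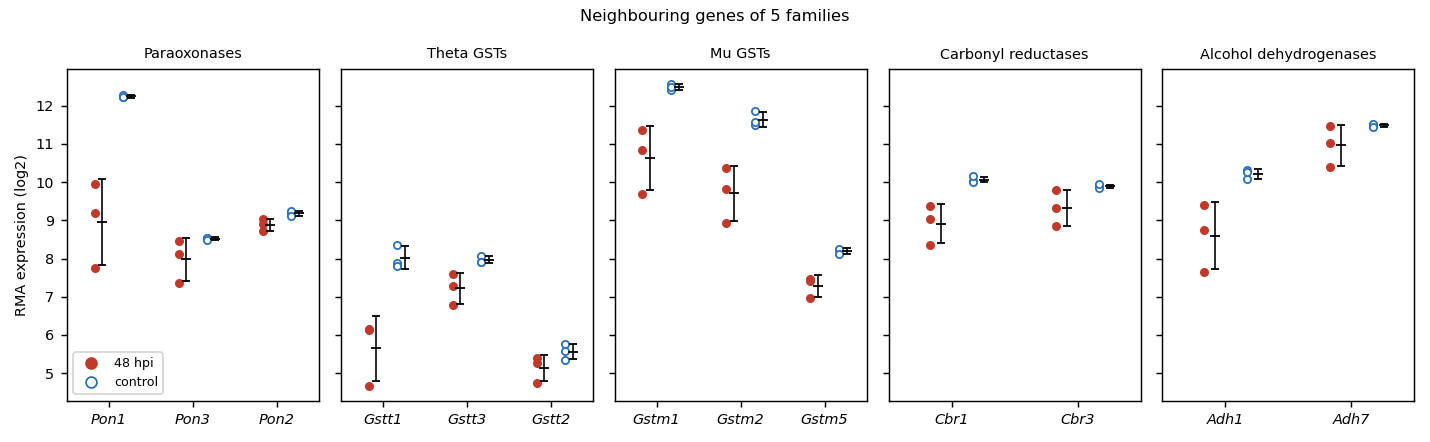
RMA log2 values of neighbouring members of 5 families, with filled points for 48 hpi pools, open points for control pools, and bars for the mean and SD of the 3 pools. The 48 hpi points of Pon1, Gstt1 and Adh1 lie further below their controls than those of their neighbours, while Gstm1 and Gstm2 fell by 1.85 and 1.93.

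Genes with several probe sets gave a second reading. Of the 69 probe sets of the members, 43 were called lower and 7 higher when all 34945 probe sets were tested, against 15.2% lower and 17.7% higher over all probe sets. All 5 probe sets of Aldh2 (-2.46 to -0.95), all 5 of Fmo2 (-2.13 to -0.67), all 4 of Gstm1 (-2.02 to -1.55), all 3 of Ces1d (-1.24 to -0.88) and both of Gsta3 and of Sult1d1 were lower. Both probe sets of Mgst3 (0.43 and 0.91) and all 3 of Aldh1a3 (0.37 to 1.78) were higher. The smallest falls of Aldh2 and of Fmo2 came from probe sets below background in both groups. Further Aldh2 probe sets fell below it at 48 hpi. In control, the 3 probe sets of Aldh1a3 and the dimmer one of Mgst3 lay below background. The probe sets of 4 genes disagreed. A dimmer probe set of Adh7 was called lower (-0.70, adjusted p = 0.0217) although the brightest was not, 1 of 3 probe sets of Fmo5 was not called (-0.29), and a second probe set of Mgst1, below background, was not called (-0.24). In Pon2 a probe set below background was called higher (0.35, adjusted p = 0.0392) while the other 3 were not called (-0.30 to -0.18).

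Related enzymes outside the set were counted in the same way, from lists chosen with earlier results of these data known. Over all genes 17.5% were called lower and 19.4% higher, and among genes above background 23.4% and 27.6%. Of 10 other glutathione transferase genes, 5 were lower and 1 was higher. The lower ones included Gstm6 (-1.96, SE 0.26) and Gstk1 (-1.26, SE 0.20), a mitochondrial and peroxisomal enzyme, and the higher one was Gstcd (1.20, SE 0.17). Of 12 other aldehyde dehydrogenases, 4 were lower and 3 higher, and the higher ones were Aldh18a1 (1.28, SE 0.17), which makes proline precursors, the folate enzyme Aldh1l2 (0.81) and Aldh9a1 (0.49). Of 13 other hydrolases, 5 were lower, among them Ces2b (-1.48, SE 0.19), and Ces2g was higher (0.55). Of 31 other oxidoreductases, 11 were lower, with Aox1, a second aldehyde oxidase, at -2.63 (SE 0.26) and the electron carrier Cyb5a at -0.83 (SE 0.11), and 3 were higher, with Nqo2 at 0.56 (SE 0.08). Of 29 other conjugating enzymes, only 10 passed background in at least 1 group, and 3 were lower and 2 higher. The lower ones were the sulfotransferases Sult1c2 (-1.71, SE 0.25) and Sult1c1 (-3.16, SE 0.78) and the histamine methyltransferase Hnmt (-2.10, SE 0.41). The 48 hpi mean of Hnmt lay below background, as did Sult1c1 and Sult1c2 in the third 48 hpi pool. The higher ones were the thiopurine methyltransferase Tpmt (0.68, SE 0.11) and the cholesterol sulfotransferase Sult2b1 (0.53, SE 0.13, adjusted p = 0.0148). Of 11 sulfotransferases outside the set, 2 were thus lower and 1 higher. Sult1e1, Sult2a2, Sult2a8, Sult3a1, Sult4a1 and Sult6b1 were below background in both groups, so no change in their level can be read. In these lists the median change ran from -0.55 for the transferases to -0.02 for the conjugating enzymes, most of which were below background. It was -0.019 over all genes.

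Genes that regulate or work beside these enzymes were mixed. Of 14 regulators, 4 were lower (28.6%, against 17.5% of all genes and 23.4% of genes above background) and none was higher. The 3 with the smallest p were the transcription factor genes Cebpb (-1.09, SE 0.12) and Cebpa (-0.65, SE 0.10), and the aryl hydrocarbon receptor Ahr (-0.57, SE 0.09, adjusted p = 0.00144). Of 9 efflux pumps, 3 were lower, with Abcc4 at -1.15 (SE 0.11), and Abcb1b, below background on every control array, was at least 1.88-fold higher (fitted change 1.63, SE 0.29). Antioxidant and glutathione-forming genes went both ways, with 7 of 24 lower (29.2%) and 8 higher (33.3%) and a median change of 0.15. These shares lie near those of all genes above background, 23.4% lower and 27.6% higher. Gpx4, which reduces lipid peroxides, fell by 0.91 (SE 0.10) and the peroxiredoxin Prdx4 (0.99, SE 0.11) and glutathione reductase Gsr (0.66, SE 0.08) rose. Of 56 cytochrome P450 genes of families 1 to 4, 15 passed background and 13 of these were lower. Counting the dim genes too, 15 were lower and none higher. Among them were Cyp4b1 (-2.30, SE 0.30) and Cyp4v3 (-2.12, SE 0.28).

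**Figure D5:**
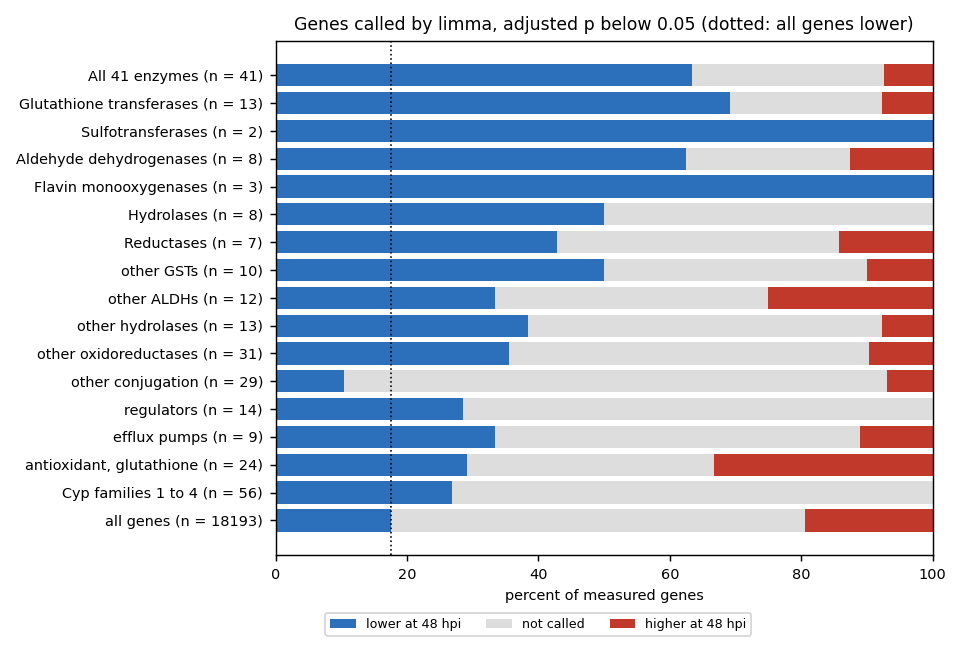
Percent of measured genes called lower, not called and called higher at 48 hpi in the 41 enzymes, their 6 kinds, 9 further lists and all 18193 genes, with the dotted line at the 17.5% of all genes that were called lower. The 41 enzymes stand at 63.4% lower and 7.32% higher, and the antioxidant and glutathione list has 7 genes lower and 8 higher of 24.

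Most markers of secretory, ciliated and gland cells were lower at 48 hpi, as were most of the enzymes. In control, 14 of 14 markers of secretory cells, 13 of 15 of ciliated cells and 12 of 12 of basal cells passed background, so the cell types of the labelled epithelium were present. Of the secretory markers 12 were lower at 48 hpi and none higher, while over all genes 17.5% were lower and 19.4% higher. The summed level of these markers was 16.69, 16.73 and 15.93 at 48 hpi, against 17.22, 17.27 and 17.27 in control. That sum weighs the brightest markers most, such as Bpifa1 (-0.45) and Scgb1a1 (-0.51), while the median change of the list was -1.07. The third 48 hpi pool was the lowest in this sum, as it was for most enzymes and for 75.4% of all genes called lower. Ciliated markers had a summed level of 10.73, 10.87 and 10.10 at 48 hpi, against 11.54, 12.43 and 12.05 in control, with 13 of 15 lower. The 2 not called were Foxj1, above background in both groups (-0.04, adjusted p = 0.954 by limma), and Spag6, which was below it. The gland serous markers, of which 3 of 5 were lower, had 14.08, 13.63 and 12.18 at 48 hpi, against 15.13, 15.02 and 15.07 in control. Basal markers had 14.62, 14.52 and 14.68 at 48 hpi, against 14.27, 14.33 and 14.25 in control. Of the 12, 4 were higher and 3 lower, with a median change of 0.16. The higher ones included the basal keratin Krt14 (3.18, SE 0.34). The lower ones were Dapl1 (-0.95), Ngfr (-0.66) and Pdpn (-0.35), and Trp63 was not called (-0.34). All 9 cell cycle genes were higher. The part of cell composition in the fall of the enzymes was not tested.

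Lyz2, Dcn and Chad, single markers of other cell types, were well above background and fell as well, while most markers of their lists were below background in control. Ptprc, which encodes CD45, was below background on all 6 arrays. The summed level of leukocyte and macrophage markers was 12.83, 11.89 and 10.82 at 48 hpi, against 14.04, 13.81 and 14.09 in control, with 3 of 12 lower. That sum followed the lysozyme gene Lyz2, which had 12.35, 10.99 and 8.57 at 48 hpi, against 13.85, 13.60 and 13.87 in control, while the median change of the list was -0.10. Cd14, named after its values were seen, had a mean of 10.49 at 48 hpi and 10.82 in control and was not called (-0.33, adjusted p = 0.146), and 5 of the 12 passed background. None of 5 neutrophil, 7 endothelial, 5 adipocyte or 4 hepatocyte markers was called, and 1, 1, 2 and 1 of these passed background. Of the fibroblast markers 1 of 9 was lower, the matrix proteoglycan Dcn, with a mean of 8.47 ± 0.88 at 48 hpi and 10.32 ± 0.28 in control (SD, n = 3 each), and Fbln1 was higher (1.73, SE 0.14). Dcn and Fbln1 were the only 2 of the 9 above background in control, where the collagen genes Col1a1, Col1a2 and Col3a1 were below it. Of the cartilage markers 1 of 7 was lower, Chad, with 9.42, 9.72 and 7.87 at 48 hpi, against 11.47, 11.95 and 11.62 in control, and none was higher. Only 3 of the 7 passed background, and the cartilage collagen Col2a1 did not. Of the smooth muscle markers 1 of 5 was lower, Myh11, which was below background in both groups, and none was higher. The shares lower were 25% of leukocyte, 11.1% of fibroblast, 14.3% of cartilage and 20% of smooth muscle markers. They lie near the 17.5% of all genes and 23.4% of genes above background. The third 48 hpi pool was the lowest for Lyz2, Dcn and Chad, as it was for most enzymes and for 75.4% of all genes called lower. Where no gene of a list is given here as called in a direction, limma at an unadjusted p below 0.05 gave 1 gene higher in each of the P450, ciliated, neutrophil, cartilage and smooth muscle lists and 0 in the others named, and the methods' t-test with adjusted p-values gave 1 gene higher in the cartilage list and 0 in the others. The part of these cells in the fall of the enzymes was not tested.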

How the data were processed

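RNA of 6 pools of tracheal epithelium, 3 at 48 hpi and 3 control, was amplified with MessageAmp Premier and hybridized to Affymetrix mouse arrays. The authors deposited log2 values, normalized by RMA in Partek 6.5, and the submitters' processing notes also name Affymetrix Expression Console 1.1. The values come without detection calls. The labels call the samples biological replicates, and p-values measure the spread between pools. The arrays of mesenchyme were not analysed here.

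Gene names came from the annotation of the array, and 34741 of the 34945 probe sets with 1 symbol matched RefSeq by Entrez ID. A gene was read from its brightest probe set by the mean of the 6 arrays. The comparison of 48 hpi with control used lmFit and eBayes of limma 3.58.1 (R 4.3.3) and no block, and a second fit took every probe set. The methods used an analysis of variance over 2 tissues, and without the mesenchyme only this comparison of 2 groups was made here. The method was tested on simulated data. Summed marker levels are log2 of sums of linear signals.

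The members, lists and tests were chosen with earlier results of these data known. Values on every array are given for up to 4 called members of each kind with the largest change and for every member called higher, and outside the set up to 3 called genes per list and direction with the smallest p. Alternatives were other variance models, an unpaired t-test, 3 normalizations, a block for the replicate number, a background filter and weights for the arrays. Further ones were other ways to choose the probe set, 2 stricter thresholds and leaving out each array. The comparison of neighbouring genes was added after the values were seen. The number of arrays limits the precision.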

Additional observations from a re-analysis of the deposited data

How the results depend on the processing

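Of the 29 called enzymes, 11 kept their call and direction under all 21 alternatives and 25 did when any 1 array was left out. No called enzyme changed direction, and the sign moved for Gsta4, Gsto1, Ephx2 and Pon2, which were not called. The enzymes called lower numbered 13 by an unpaired t-test with adjusted p-values and 23 to 31 with 1 array left out, against 26. Their probe sets called lower numbered 22 by that t-test, against 43. The enzymes called higher numbered 1 where a log2 change of at least 1 was also required and 3 to 3 with 1 array left out, and the probe sets called higher 4 at a threshold of 0.01, 2 with that change required and 4 to 7 with 1 array left out, against 7. Sulfotransferases called lower numbered 0 by the t-test after adjustment, 1 by the t-test without adjustment, with a common median, with equal hybridization controls, at the threshold of 0.01 and with the change required, and 1 to 2 with 1 array left out. Aldehyde dehydrogenases called lower numbered 2 by the adjusted t-test, with equal hybridization controls and with the change required. The adjusted t-test left 2 hydrolases and 1 reductase, and with 1 array left out 3 to 6 reductases were called lower. The causes of these shifts were not tested.

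Over all genes, 3191 were called lower and 3527 higher, with a common median 2445 and 4238, and with equal hybridization controls 837 and 4409. Whether the replicate numbers pair the samples could not be told from the values. In their deviations from the group means, the same-numbered arrays correlated at 0.10, 0.219 and 0.036, and the others at -0.201 to 0.051. The first and second 48 hpi arrays correlated best with the control of the same number, and the third with the first control (0.051). With the replicate number as a block, 27 enzymes were called lower, Gstt2 being added, and 3 higher. Few arrays and signals close to background limit the calls of Gstt2, Ces1g and Ephx2.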
